A study of Mus musculus with 37 samples.

Results

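The imprinted growth genes Igf2, H19, Dlk1, Meg3, Mest, Peg3, Cdkn1c, Grb10, Plagl1 and Ndn were followed across 9 components of the developing mouse kidney. They were chosen by name, as all probe sets that the array annotation gives to these 10 genes, out of 15710 genes tested. The array carries 37 probe sets for them, of which 34 passed a filter on low signal, and every gene kept at least 1. All animals were wild-type CD-1 mice of unknown sex, and each of the 37 RNA samples was hybridised to its own Affymetrix array. At E11.5 (embryonic day) the ureteric bud gave 4 arrays and the metanephric mesenchyme 8, and at E12.5 the renal vesicle gave 5. The E15.5 kidney gave 4 renal corpuscle arrays, 2 from the proximal tubule and 4 from the S-shaped body, 3 from the ureteric tip and as many from the medullary collecting duct, and 4 from the medullary interstitium. About 50 sections of 5 kidneys went into each pool, and the labels give 2 rounds of RNA amplification. The labels name laser capture for all 37 arrays, whereas sample titles name dissection or collagenase for all 4 ureteric bud arrays and for 4 of 8 mesenchyme arrays.

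Imprinted genes are transcribed mainly from the copy inherited from 1 parent. Igf2, Dlk1, Mest, Peg3, Plagl1 and Ndn are known for expression from the paternal copy in the mouse, and H19, Meg3, Cdkn1c and, in most tissues, Grb10 from the maternal copy. Many act on fetal growth: paternally expressed members such as Igf2 favour it, and maternally expressed members such as Cdkn1c and Grb10 restrain it. In the mouse kidney, Cdkn1c is known in podocytes as they leave the cell cycle and in the medulla, where its loss disturbs development. The arrays do not separate parental copies, so every value below is the sum of both.

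Values are normalized log2 signals, and a fold change is the difference of 2 component means on that scale. A gene counts as called, that is as higher or lower, where limma's adjusted p is under 0.05 and the log2 fold change is 1 or more in size; rose and fell are used for called genes. The array median of the deposited signal ranged from 127 to 334. The labelled components carried their markers: the 7 podocyte markers listed, of which 5 were measured, averaged 11.23 to 15.02 in renal corpuscles against 7.86 to 8.09 in ureteric buds, and the 6 measured ureteric markers averaged 13.58 to 14.34 in ureteric buds against 7.59 to 11.43 in mesenchyme. In 2 arrays the markers of the labelled component itself went against the label. The library labelled renal corpuscle replicate 4 had a podocyte mean of 11.23, against 13.97 to 15.02 in the other corpuscle arrays, and a renal vesicle marker mean of 12.59, against 8.97 to 9.71. S-shaped body replicate 3, as labelled, had a podocyte mean of 14.49, while its fellow arrays had 11.06 to 11.86, and a renal vesicle marker mean of 9.02, against 12.22 to 12.81. It also had a proximal tubule marker mean of 12.35, against 8.57 to 8.98. Results that rest on these libraries are given with and without them. The 2 were picked by markers in these same arrays, so a value without them is no separate test. Several more arrays carried a second component's markers beside their own. Interstitium replicate 1 had a ureteric mean of 13.02, against 9.18 to 11.39 in its fellows and 12.22 to 12.97 in collecting ducts, and without it 1 member was called in the interstitium against the mesenchyme, where 0 were with it. Renal corpuscle replicate 2 had a ureteric mean of 11.53, against 8.86 to 9.93 in its fellows, and a nephron progenitor mean above their 7.68 to 8.24; without it the Cdkn1c rise given below was 1.08 and not called. Ureteric means also stood out in renal vesicle replicates 2 (12.06) and 3 (11.42), against 9.27 to 9.46 in their fellows. Vesicle replicate 3 had a stromal mean of 12.69 too, against 9.88 to 11.51. Mesenchyme replicates 1 and 2 had ureteric means of 11.38 and 11.43, against 7.59 to 10.23 in the other mesenchyme arrays. Proximal tubule replicate 2 had 12.63, against 10.9 in replicate 1. Components may share animals, so p-values may be too small, and in these bulk samples fewer cells of a type and less RNA per cell cannot be told apart.

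Sequence windows of the transcript starts are shown for Igf2, whose 2 probe sets ran apart, and for the neighbouring imprinted genes Dlk1 and Meg3. RefSeq (GRCm38.p6) has 15 such windows, from 250 bases before to 50 after a start, for 8 of the 10 genes. Igf2 has 4 of them, and the one richest in CpG, with 24 CpG dinucleotides against a median of 7 over all 32851 windows, lies at chr7:142658755-142659054 on the minus strand. Dlk1 and Meg3, which lie on chromosome 12, are shown at chr12:109452573-109452872 with 9 CpG and at chr12:109540746-109541045 with 13 CpG, both on the plus strand. Capitals mark matches on either strand to GGGCGG, known as the binding motif of Sp1, which in Igf2 lies on the opposite strand. In Meg3 they mark the TATA box motif TATAAA, whose matches on the 2 strands overlap each other.
Igf2: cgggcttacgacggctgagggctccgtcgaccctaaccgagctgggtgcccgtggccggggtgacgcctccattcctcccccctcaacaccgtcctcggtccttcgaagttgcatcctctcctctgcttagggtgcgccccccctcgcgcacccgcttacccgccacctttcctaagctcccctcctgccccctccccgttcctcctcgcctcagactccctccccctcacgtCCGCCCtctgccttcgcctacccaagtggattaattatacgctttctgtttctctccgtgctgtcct
Dlk1: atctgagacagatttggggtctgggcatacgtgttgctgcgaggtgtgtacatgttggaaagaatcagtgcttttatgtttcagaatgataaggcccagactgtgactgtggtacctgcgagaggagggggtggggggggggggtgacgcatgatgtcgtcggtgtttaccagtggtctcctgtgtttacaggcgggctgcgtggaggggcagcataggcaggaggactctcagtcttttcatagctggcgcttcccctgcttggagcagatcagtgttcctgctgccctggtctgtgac
Meg3: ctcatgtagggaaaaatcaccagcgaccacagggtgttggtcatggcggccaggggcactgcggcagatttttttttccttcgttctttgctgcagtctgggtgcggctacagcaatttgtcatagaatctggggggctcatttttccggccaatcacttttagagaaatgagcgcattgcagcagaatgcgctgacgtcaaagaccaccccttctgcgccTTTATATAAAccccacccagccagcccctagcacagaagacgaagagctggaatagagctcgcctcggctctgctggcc
GGGCGG matched 8 of the 15 windows, in 5 genes, and 35.7% of all windows. TATAAA matched 1 of the 15 windows, and 13.6% of all windows. GGGGCCCC, part of the GC-rich element that Plagl1 binds, matched 1 of the 15, in Peg3 (chr7:6730370-6730669), and 1.08% of all windows.

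The only probe set for H19 is annotated to both H19 and Mir675, a microRNA gene within H19 on chromosome 7, and cannot be assigned to one of them. It does not measure the mature microRNAs, whose sequences follow with the seed (bases 2 to 8) in capitals to show what lies within that transcript.
mmu-miR-675-5p: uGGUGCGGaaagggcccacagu
mmu-miR-675-3p: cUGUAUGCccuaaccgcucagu
Their seeds differ from each other. The 5p form lies at chr7:142577112-142577133 and the 3p form at chr7:142577078-142577099, both on the minus strand.

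In their brightest probe set, nearly all of these genes stood high on the arrays. The brightest probe set of each gene was used as its main value, and 8 of 10 such probe sets lay at the 97th percentile or above in the median array. That percentile is over all probe sets, and the share of other genes' brightest probe sets above it was not computed. The members' other probe sets had median percentiles from 4.1 (Peg3 1447732_x_at) to 99.2 (Ndn 1437853_x_at). The H19/Mir675 probe set was brightest, at a mean of 16.07 and between the 99.3 and 99.9 percentile of every array. Grb10, an adaptor protein that dampens insulin and Igf receptor signalling, averaged 15.65 and Peg3, a zinc finger protein, 15.64. Dlk1, a transmembrane protein of the Notch ligand type, was the dimmest at 9.11, a median percentile of 63.9. Signals of different probe sets depend on their probes, so these values rank features on the array and not amounts of RNA. Deposited signals of the H19/Mir675 probe set ran from 38419.7 to 153784.4, against 15.57 to 16.49 after normalization. Whether differences among such bright features are compressed was not tested.

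Differences among components were nevertheless found for 8 of 10 genes by limma's F-test, against 49.9% of all genes tested. The 2 that missed it were Mest, a hydrolase-like membrane protein (adjusted p = 0.179), and Plagl1, a zinc finger regulator of growth arrest (adjusted p = 0.157). The span between the highest and lowest component mean was widest for Meg3, a long non-coding RNA, at 3.17, with a pooled within-component SD of 1.26. Cdkn1c spanned 2.68 with a pooled SD of 0.67, Plagl1 2.30 with 1.41, which include the corpuscle array described below, and Dlk1 2.09 with 0.75. The H19/Mir675 probe set spanned 0.56 with a pooled SD of 0.12, and Ndn 0.78 with 0.27. When components were ordered by mean, arrays of neighbouring components overlapped at all 8 steps for 8 of the 10 genes. The exceptions were Igf2 and Cdkn1c, each with 1 step without overlap, which for both lay between the renal vesicle and the ureteric bud below it. Neighbours in an order by mean are close by construction, and the overlap was not counted for all genes. It is therefore a description and not a trait of these genes.

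**Figure D1:**
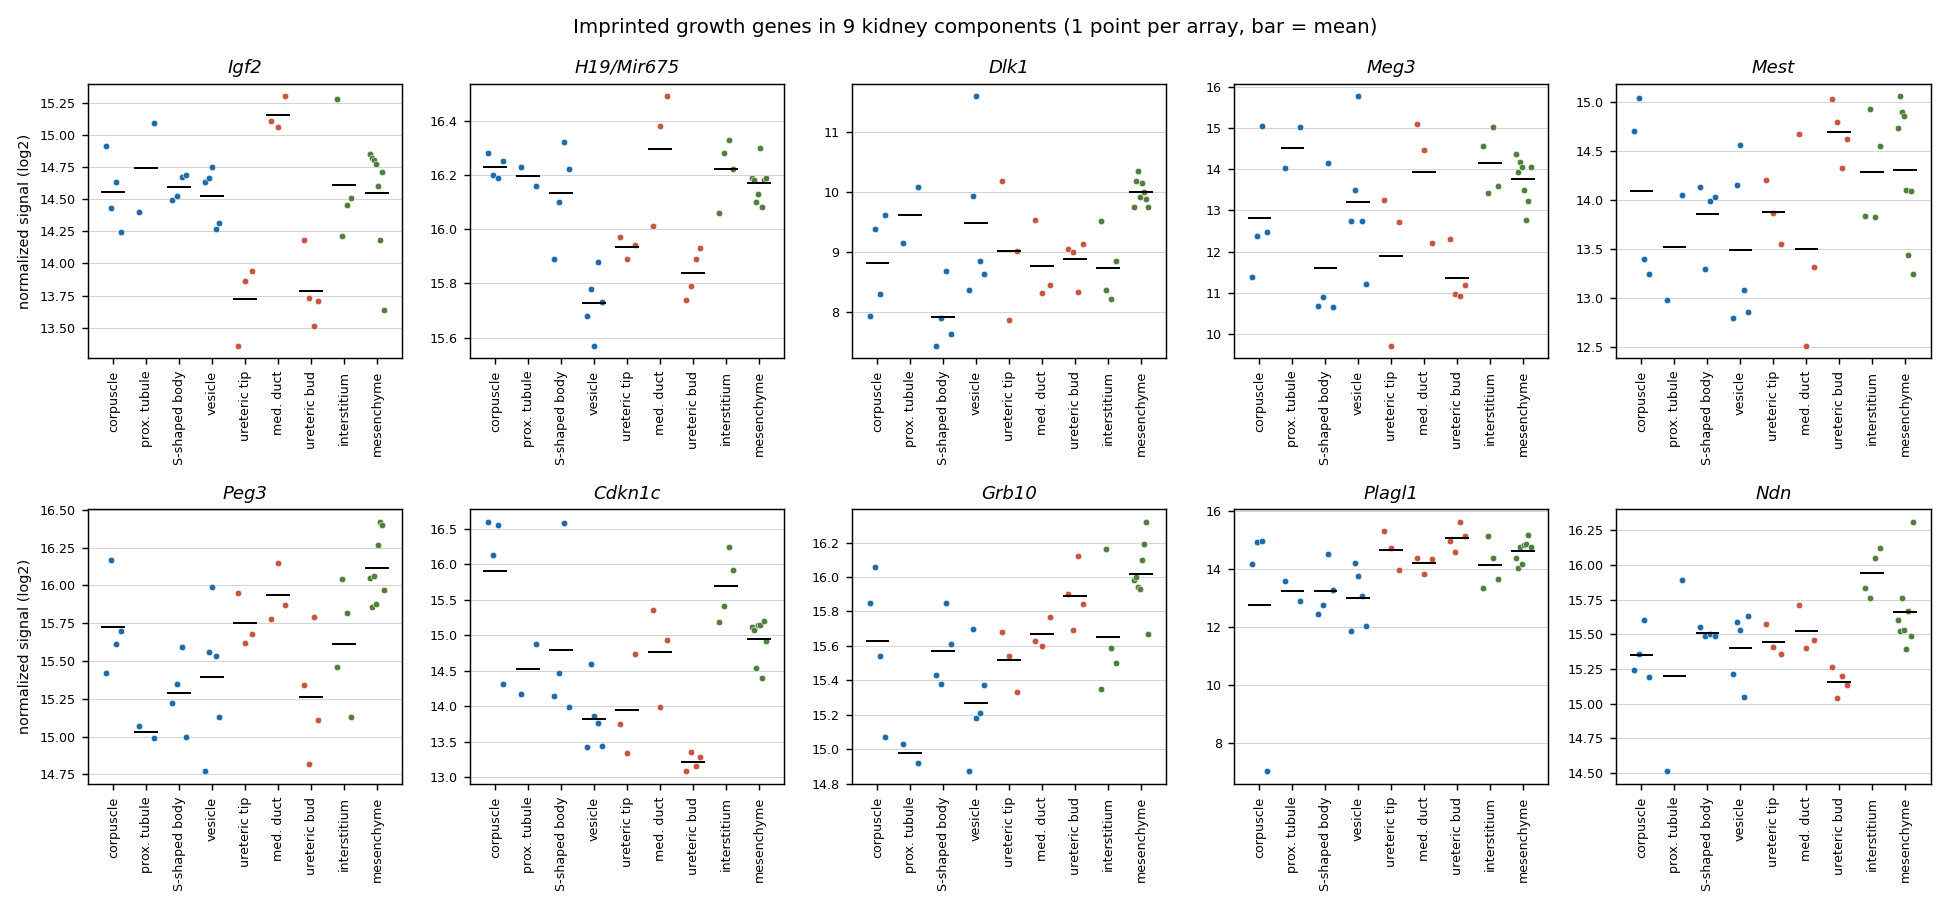
Normalized log2 signal (vertical axis, different range in each panel) of the main probe set of each gene in 9 components, 1 point per array and a bar at the component mean. Cdkn1c reaches 15.90 in the renal corpuscle against 13.22 in the ureteric bud, and single arrays lie far from their group for Plagl1 (7.02, renal corpuscle) and Meg3 (14.15, S-shaped body).

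Over 11 comparisons and 10 genes, 7 of 110 fold changes were called, 3 higher and 4 lower, and all belonged to Cdkn1c, Igf2 and Meg3. In the ureteric bud against the mesenchyme 0 of 10 rose, where 4.09% of all genes did, and 2 fell, where 4.07% did, with a member median of -0.63 against 0.02 over all genes. In the renal vesicle against the mesenchyme 0 rose (3.87% of all genes) and 1 fell (7.98%), with a median of -0.64 against -0.06. In the medullary collecting duct against the ureteric bud 2 rose (4.12% of all genes) and 0 fell (6.09%), with a median of 0.41 against -0.19. In the ureteric tip against the medullary collecting duct 0 rose (0.121% of all genes) and 1 fell (0.236%), with a median of -0.17 against -0.02. In the renal corpuscle against the other E15.5 components 1 rose (2.01% of all genes) and 0 fell (3.4%), with a median of 0.04 against -0.03.

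No member was called by limma in the remaining 6 comparisons, where the number with an unadjusted p under 0.05 was 4, 1, 3, 1, 3 and 2 of 10 in the order given here. In the S-shaped body against the renal vesicle the member median was 0.19 against -0.04, where 3.29% of all genes rose and 1.74% fell. In the renal corpuscle against the S-shaped body it was 0.17 against -0.04, with 0.102% and 0.477% of all genes called. In the proximal tubule against the S-shaped body it was -0.14 against 0.08, with 5.64% and 4.27% called. In the ureteric tip against the ureteric bud it was 0.12 against -0.22, with 2.04% and 2.21% called. In the medullary interstitium it was 0.02 against -0.11 relative to the mesenchyme, with 4.67% and 6.82% called, and 0.35 against 0.01 relative to the other E15.5 components, with 3.48% and 2.64% called. A further 9 fold changes passed the adjusted p with a log2 fold change under 1 in size, and 6 of these were in the bud or the vesicle against the mesenchyme.

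**Figure D2:**
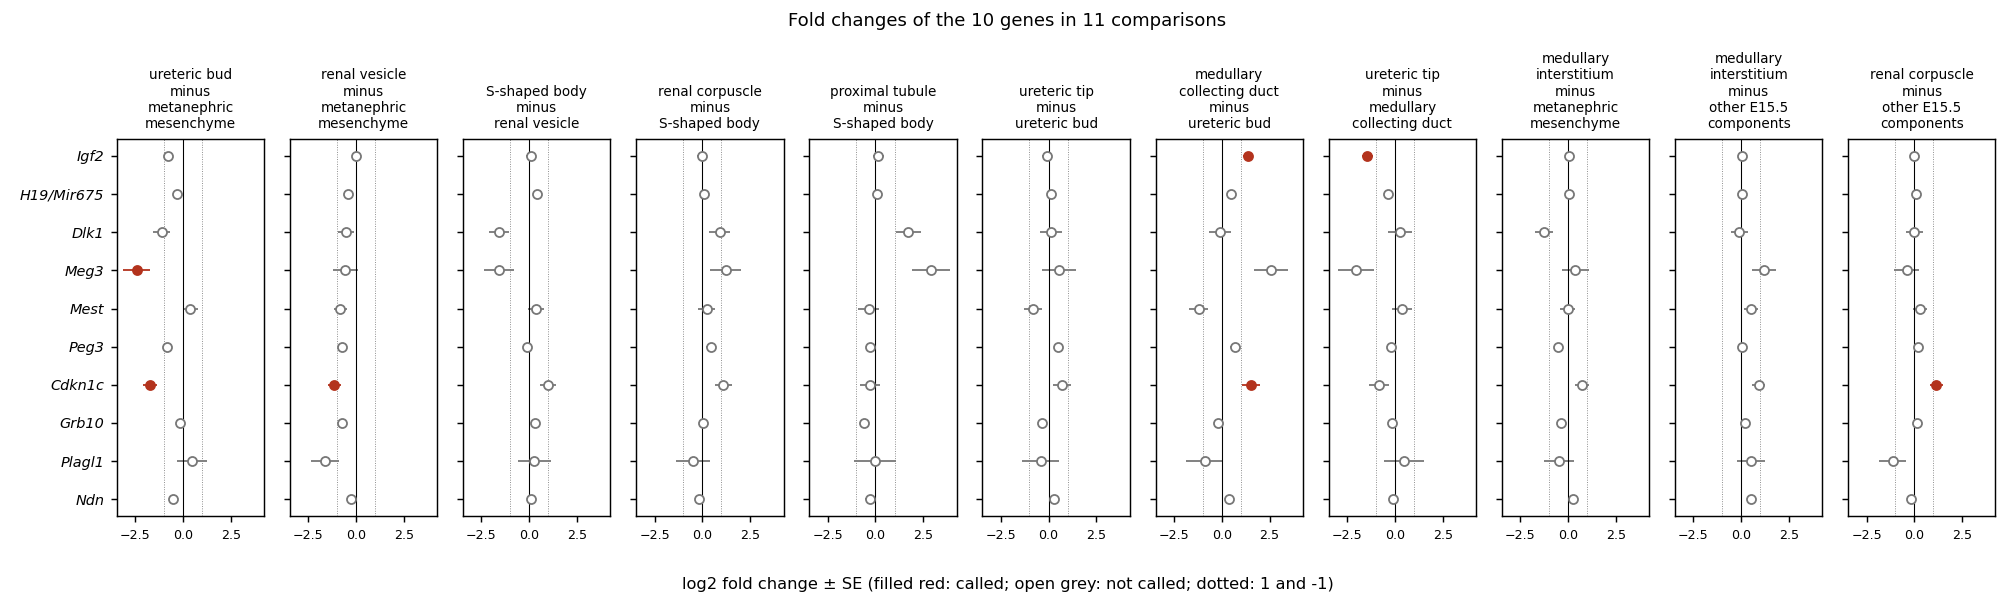
Log2 fold change with its SE (horizontal axis) of each gene (rows) in 11 comparisons (panels), with called values filled. The 7 called values belong to Cdkn1c (4), Igf2 (2) and Meg3 (1).

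Cdkn1c, which encodes the cyclin-dependent kinase inhibitor p57, had the most calls. In the 4 renal corpuscle arrays it was at 16.60, 16.13, 16.55 and 14.32, against 13.34 at the lowest, 14.80 at the median and 16.58 at the highest of the 16 other E15.5 arrays. Among those 16, only S-shaped body replicate 3, as labelled, and 1 interstitium array reached any of the first 3 corpuscle arrays, and the library labelled renal corpuscle replicate 4 lay below the median, so the groups overlapped. Cdkn1c rose by 1.16 in the renal corpuscle relative to the mean of the other E15.5 components (SE 0.34, adjusted p = 0.0389). Without the 2 libraries whose markers go against their labels the rise was 1.80 (SE 0.26, adjusted p = 2.23e-05), where 3.09% of all genes rose. Cdkn1c went with the podocyte markers in both of them. The larger rise and smaller SE therefore follow from that choice and are no separate test. All 5 measured podocyte markers rose in the same comparison, with a median of 3.27, and their part in the Cdkn1c result was not tested. Within the date codes of the sample titles that hold both sides, the difference was 2.46, -0.12 and 1.19; the negative one set a corpuscle array against a single interstitium array. With title date as a fixed term the difference was 1.33 and not called (adjusted p = 0.501). Leaving out any of corpuscle replicates 1, 2 and 3 ended the call, at 0.92, 1.08 and 0.94, as did leaving out proximal tubule replicate 1 (1.08), medullary collecting duct replicate 2 (1.08), or ureteric tip replicates 1 (1.14) or 2 (1.1).

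Against the S-shaped body alone, the renal corpuscle values of Cdkn1c stood against 14.14, 14.47, 16.58 and 13.99. The 2 groups overlapped through the same 2 libraries, each of which lay among the arrays of the other component. The fold change was 1.1 (SE 0.43, adjusted p = 0.243) with all arrays and 2.23 (SE 0.33, adjusted p = 0.000107) without those 2, where 1.5% of all genes rose. With only 1 of them left out it was 1.63 without renal corpuscle replicate 4 (adjusted p = 0.0322) and 1.70 without S-shaped body replicate 3 (adjusted p = 0.0234), past the threshold in both cases. Here too the libraries left out were picked by markers that Cdkn1c went with, so these fits are no separate test.

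**Figure D3:**
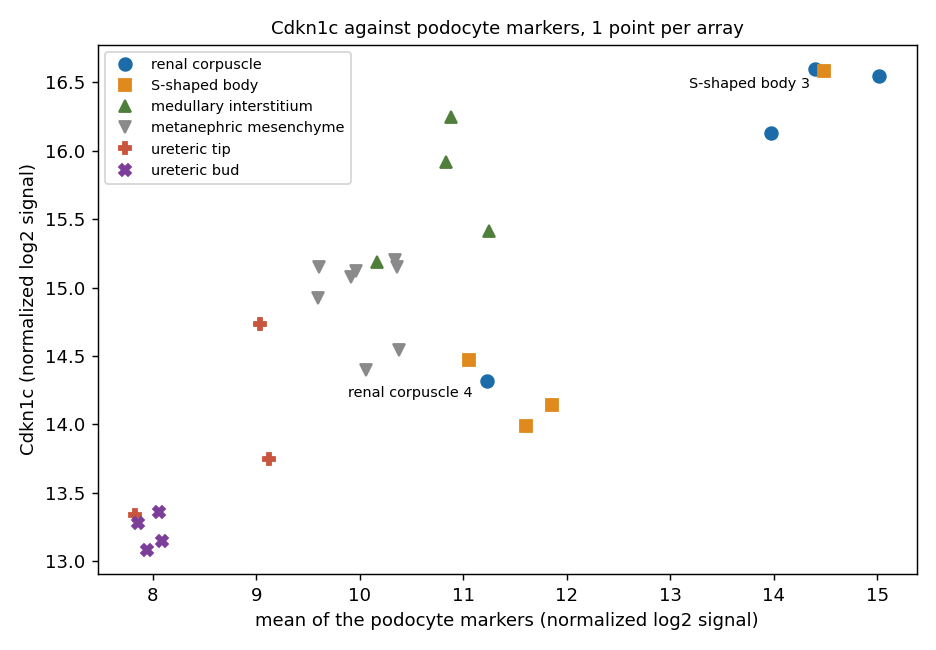
Cdkn1c (vertical axis) against the mean of 5 podocyte markers (horizontal axis), both as normalized log2 signal, for the arrays of 6 components. The S-shaped body 3 point (14.49, 16.58) lies with 3 renal corpuscles and the renal corpuscle 4 point (11.23, 14.32) with the other S-shaped bodies, while interstitium arrays reach 16.25 at podocyte means of at most 11.25.

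The medullary interstitium was the other component with high Cdkn1c, at 15.19, 15.41, 16.25 and 15.92, against a lowest of 13.34, a median of 14.60 and a highest of 16.60 in the 16 other E15.5 arrays. All 4 interstitium arrays lay above that median, and the groups overlapped. The difference of 0.91 (SE 0.34, adjusted p = 0.109) was not called. The mean of the 7 stromal markers was 14.06 to 14.32 in these arrays, and 5 of the 7 rose. Relative to the metanephric mesenchyme, where Cdkn1c was 14.40 at the lowest, 15.10 at the median and 15.20 at the highest of 8 arrays, the difference was 0.75 (SE 0.37, adjusted p = 0.189). Without the 2 libraries whose markers go against their labels, the difference from the other E15.5 components was 0.92 (SE 0.23, adjusted p = 0.0101). That from the mesenchyme was then 0.75 (SE 0.25, adjusted p = 0.0375). Both passed the p but not the fold.

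Cdkn1c was lowest in the early ureteric bud, at 13.08, 13.36, 13.15 and 13.28, and no bud array reached any of the 8 mesenchyme arrays. It fell by 1.73 in the bud (SE 0.37, adjusted p = 0.00149). The pair of arrays that shares a date code differed by -1.25, and against the 4 mesenchyme arrays titled as dissected or collagenase-treated the value was -1.70 (adjusted p = 0.0166). All 12 refits with 1 array left out kept the call. Title date as a fixed term gave -1.25, which rests on the pair that shares a date code alone, so it cannot decide the call. In the same comparison 6 of 7 stromal, 4 of 4 mural and mesangial, 4 of 6 nephron progenitor and 2 of 5 podocyte markers fell, and their part was not tested. In renal vesicles Cdkn1c was 13.42, 14.59, 13.86, 13.76 and 13.44, of which only the second reached into the mesenchyme range, and it fell by 1.13 relative to the mesenchyme (SE 0.35, adjusted p = 0.0255). That call ended without vesicle replicate 1 (-1.03) or 5 (-1.04), and against either kind of mesenchyme tissue alone (-1.12 and -1.10). Without the 2 libraries whose markers go against their labels it held, at -1.13 (SE 0.23, adjusted p = 0.000921), where 9.5% of all genes fell. There too markers moved, with 5 of 7 stromal ones lower, and their part was not tested.

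In the medullary collecting duct, the later and deeper part of the ureteric tree, Cdkn1c was 15.36, 13.99 and 14.94, above every ureteric bud array. It rose by 1.55 relative to the ureteric bud (SE 0.47, adjusted p = 0.0277). Without the 2 libraries whose markers go against their labels the rise was the same 1.55 (SE 0.31, adjusted p = 0.000902). The ureteric tip, at 13.75, 13.34 and 14.73, differed from the bud by 0.72 (SE 0.47, adjusted p = 0.431). Stromal markers were also higher in the duct than in the bud: 6 of 7 rose, and their mean was 11.12 to 13.06 in the duct against 7.85 to 8.90 in the bud; their part in the Cdkn1c rise was not tested. The table holds no detection calls, so no marker can be given as absent. Leaving out duct replicate 1 (1.25) or 3 (1.46), or bud replicate 1 (1.5), 3 (1.53) or 4 (1.57), ended the call, and the authors' scaling alone gave 1.22 (adjusted p = 0.147). With title date as a fixed term the difference was 0.59. There the bud side rests on the only bud array with a date code, so that fit cannot decide the call.

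Igf2, the insulin-like growth factor of fetal life, was bright everywhere in its main probe set, 1448152_at. It was 15.11, 15.06 and 15.30 in the medullary collecting duct, against 14.18, 13.73, 13.51 and 13.71 in the ureteric bud, without overlap. Igf2 rose by 1.37 in the duct (SE 0.26, adjusted p = 0.000482). The ureteric tip stayed near the bud, at 13.36, 13.86 and 13.94, and fell by 1.44 relative to the duct (SE 0.28, adjusted p = 0.00788), again without overlap. In the 2 date codes that hold a tip and a duct array, the differences were -1.44 and -1.12. Without duct replicate 3 the adjusted p of the fall in the tip was 0.0568 and without tip replicate 1 it was 0.0887. All buds were titled as dissected or collagenase-treated and no duct array was. With that as a term in the fit the difference of the duct was 0.85 and not called (adjusted p = 0.155). Only the mesenchyme arrays can estimate that term, so the adjustment comes from another tissue. With title date as a fixed term the difference was 1.01, and there the bud side rests on the only bud array with a date code. Neither fit can therefore decide the call. In the same comparison 6 of 7 stromal and 3 of 4 mural and mesangial markers rose, and their part in the Igf2 result was not tested.

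In nephron and stromal components the main Igf2 probe set ranged narrowly. Component means were 14.75 in the proximal tubule, 14.61 in the interstitium, 14.59 in the S-shaped body, 14.55 in both the renal corpuscle and the mesenchyme and 14.52 in the renal vesicle, with arrays that overlapped between neighbours. The ureteric bud was 0.76 lower than the mesenchyme (SE 0.21, adjusted p = 0.0128), which passed the p but not the fold. Among mesenchyme arrays, Igf2 was 14.77 to 14.85 in the 3 titled as laser captured, against 13.64 to 14.71 in the 4 dissected or collagenase-treated ones. The bud differed by -1.02 from the laser-captured arrays (adjusted p = 0.00478) and by -0.50 from the others (adjusted p = 0.268).

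The other Igf2 probe set, 1415931_at, gave a different picture, and it was singled out after its values were seen. In the 18 arrays of E15.5 other than the proximal tubule it was 9.91 at the lowest, 11.88 at the median and 13.21 at the highest. In the 17 arrays of E11.5 and E12.5 it was 5.27, 6.39 and 9.52, so the E15.5 arrays lay above every earlier one. Both proximal tubule arrays, also of E15.5, were low, at 7.4 and 7.14. Over the same arrays the main probe set was 13.36 to 15.30 in the E15.5 components and 13.51 to 14.85 in the earlier ones, and the 2 probe sets had r = 0.212 across the 37 arrays, which share components and days.

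In a fit of all 29067 single probe sets, added after the data were seen, Igf2 probe set 1415931_at rose by 6.73 in the medullary collecting duct relative to the ureteric bud (SE 0.79, adjusted p = 1.87e-07), where 6.22% of probe sets rose. It rose by 5.10 in the ureteric tip relative to the bud (SE 0.79, adjusted p = 3.38e-05; 4.51% of probe sets). It rose by 4.74 in the S-shaped body relative to the renal vesicle (SE 0.70, adjusted p = 1.42e-05; 4.01%). It rose by 5.54 in the interstitium relative to the mesenchyme (SE 0.64, adjusted p = 6.91e-08; 6.2%), and fell by 4.05 in the proximal tubule relative to the S-shaped body (SE 0.90, adjusted p = 0.0025; 5.54%). The sizes are not exact, since the low arrays lie near 5.11, the log2 of the offset: the deposited Igf2 1415931_at signals were 3.5, 13.3, 40.7 and 2.2 in the bud, against 2557, 8749.5 and 8060.1 in the duct, and another offset would give another difference. The main probe set differed by 0.07, 0.07 and 0.15 in the last 3 of these comparisons. Of 10 date codes in the titles only 1 is on arrays of more than 1 embryonic day, so date and day can hardly be separated, and the E15.5 array with that code was a proximal tubule. RefSeq gives Igf2os and Mir483 as genes that overlap Igf2, and strand or isoform differences between the probe sets were not tested.

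**Figure D4:**
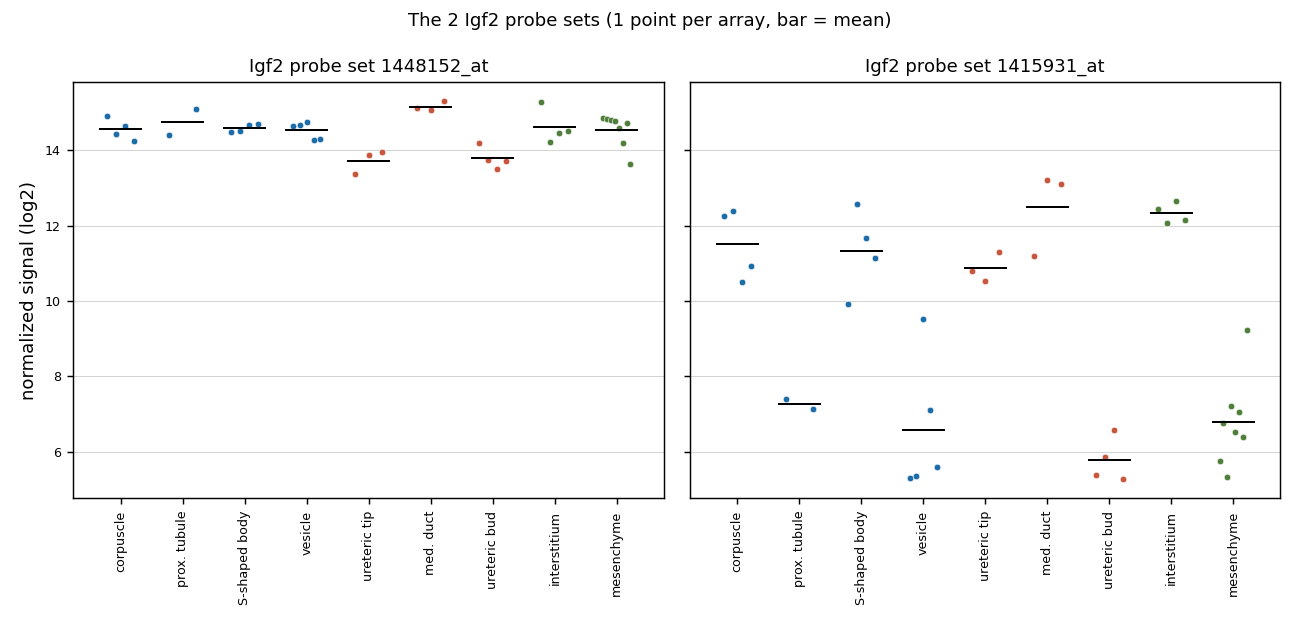
Normalized log2 signal (vertical axis) of the 2 Igf2 probe sets in 9 components, 1 point per array and a bar at the mean. The main probe set stays between 13.36 and 15.30, whereas 1415931_at is at 9.91 to 13.21 in E15.5 components other than the proximal tubule and at 5.27 to 9.52 on E11.5 and E12.5.

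The H19/Mir675 probe set belongs to the non-coding RNA gene next to Igf2, whose expression is known to depend on the same control region. It was 16.01, 16.38 and 16.49 in the medullary collecting duct, against 15.74, 15.79, 15.89 and 15.93 in the ureteric bud, and 15.97, 15.89 and 15.94 in the ureteric tip. Duct arrays lay above every bud array, and the difference of 0.46 (SE 0.11, adjusted p = 0.00653) was under the fold threshold. The renal vesicle was lowest, at 15.68, 15.78, 15.57, 15.88 and 15.73, below all 8 mesenchyme arrays, which were 16.08 at the lowest, 16.18 at the median and 16.30 at the highest. The vesicle differed from the mesenchyme by -0.44 (SE 0.08, adjusted p = 0.000454) and the bud from the mesenchyme by -0.33 (SE 0.09, adjusted p = 0.0127). The S-shaped body differed from the vesicle by 0.41 (SE 0.10, adjusted p = 0.0123). Without the 2 libraries whose markers go against their labels that last difference was 0.34 and no longer passed the p (SE 0.11, adjusted p = 0.073). Across the 37 arrays the H19/Mir675 and Igf2 main values had r = 0.364, and H19/Mir675 and Cdkn1c had r = 0.662; components and dates are shared among these points.

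Meg3 is transcribed from the maternal copy of the chromosome 12 region in which Dlk1 comes from the paternal one. Its main probe set was 12.31, 10.97, 10.93 and 11.20 in the ureteric bud, against 12.77 at the lowest, 14.00 at the median and 14.37 at the highest of 8 mesenchyme arrays. The groups did not overlap, and Meg3 fell by 2.41 in the bud (SE 0.70, adjusted p = 0.0227). The pair of arrays that shares a date code differed by -1.84. Title date as a fixed term gave that value too, since it rests on that pair alone, so it cannot decide the call. The call ended without bud replicate 2 (-2.28), 3 (-2.26) or 4 (-2.35), and it ended in 8 of the other settings, among them the exclusion of probe sets with suffix _x_at or _s_at (-2.29, adjusted p = 0.157). Stromal markers also moved in this comparison: 6 of 7 fell, with means of 7.85 to 8.90 in the bud against 12.60 to 13.26 in the mesenchyme, and their part was not tested.

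Within several components the Meg3 arrays were far apart. The 2 proximal tubules were at 14.02 and 15.01. The S-shaped bodies were at 10.69, 10.90, 14.15 and 10.67, and the high one is the library labelled replicate 3. The difference of 2.91 between proximal tubule and S-shaped body was not called (SE 0.99, adjusted p = 0.0544). Without the 2 libraries whose markers go against their labels it was 3.76 (SE 0.96, adjusted p = 0.00734), where 6.68% of all genes rose, and in the 1 date code with both components it was 4.12. S-shaped body replicate 3, the left-out array of this comparison, is the one with the high proximal tubule markers given above. In the medullary collecting duct Meg3 was 15.10, 14.47 and 12.22, of which 2 lay above all buds and duct replicate 3 within their range, and the difference from the bud was 2.58 (SE 0.88, adjusted p = 0.052). Without duct replicate 3 it was 3.43 (adjusted p = 0.0246), and without the 2 doubted libraries it was 2.58 (adjusted p = 0.0296), both past the threshold. Ureteric tips were at 13.26, 9.72 and 12.72 and renal vesicles at 12.75, 13.49, 15.77, 12.74 and 11.21, in both cases spread over more than the difference from their neighbours.

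All 11 Meg3 probe sets passed the filter, and 5 of them differed among components by the F-test at the level of single probe sets. The share over all single probe sets was not computed. Over genes it was 49.9%, so this count is not particular to Meg3. The 11 probe sets did not all run together. Probe sets 1452183_a_at and 1426758_s_at followed the main one most closely, the first at r = 0.875 across the 37 arrays, whereas 1428764_at had r = 0.11. In the proximal tubule relative to the S-shaped body 1452183_a_at rose by 4.10 (SE 1.32, adjusted p = 0.0404) and 1426758_s_at by 3.37 (SE 1.09, adjusted p = 0.042), where 4.31% of probe sets rose. Probe set 1452905_at fell by 2.85 in the bud relative to the mesenchyme (SE 0.72, adjusted p = 0.01; 2.73% of probe sets fell), as the main one did. It was highest in the medullary collecting duct (mean 12.60) and the renal vesicle (12.42), rose by 1.99 in the vesicle relative to the mesenchyme (SE 0.67, adjusted p = 0.0471; 4.25% rose) and fell by 2.66 in the S-shaped body relative to the vesicle (SE 0.79, adjusted p = 0.0375; 1.86% fell). Relative to the bud, 1452905_at rose by 5.02 in the duct (adjusted p = 0.000208; 6.22% rose) and by 3.47 in the ureteric tip (adjusted p = 0.0129; 4.51% rose). The remaining Meg3 probe sets, 1428765_at, 1429256_at, 1429257_at, 1436057_at, 1436713_s_at and 1452906_at, had r from 0.359 to 0.639 with the main one, 1439380_x_at. RefSeq places Rtl1, Mir770 and Mir1906-1 within or across Meg3.

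**Figure D5:**
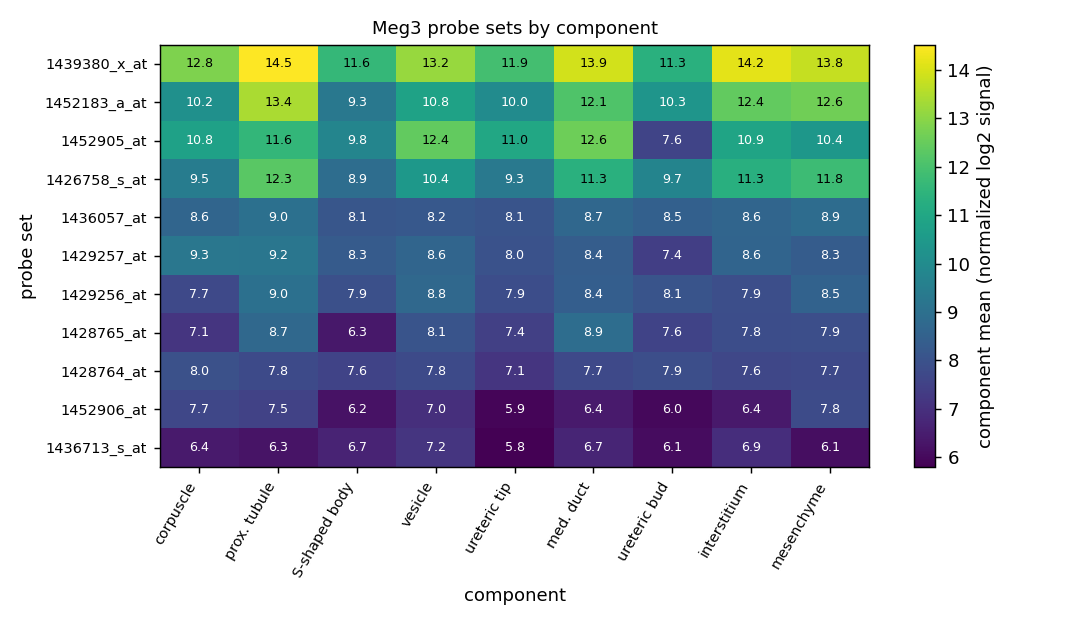
Component means (colour and printed value, normalized log2 signal) of the 11 Meg3 probe sets (rows, ordered by mean) in 9 components (columns). The rows 1439380_x_at, 1452183_a_at and 1426758_s_at are highest in the proximal tubule, while 1452905_at has its lowest mean, 7.6, in the ureteric bud and a high one, 12.4, in the renal vesicle.

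Dlk1, a paternally expressed inhibitor of differentiation in several tissues, was much dimmer. The ureteric bud stood at 9.04, 9.0, 8.32 and 9.13 and the interstitium at 9.51, 8.36, 8.21 and 8.84, against 9.74 at the lowest, 9.95 at the median and 10.34 at the highest of 8 mesenchyme arrays. Neither group overlapped the mesenchyme, yet the differences of -1.12 for the bud (SE 0.46, adjusted p = 0.164) and -1.26 for the interstitium (SE 0.46, adjusted p = 0.0654) were not called. Renal vesicle arrays ranged from 8.36 to 11.59. The proximal tubule, at 9.15 and 10.07, lay above all 4 S-shaped bodies, the lowest component, at 7.43, 7.89, 8.67 and 7.62, by a mean of 1.71 (SE 0.66, adjusted p = 0.0913). Without the 2 libraries named above that difference was 1.97 (SE 0.67, adjusted p = 0.0486). The dimmer Dlk1 probe set, 1442724_at, had its highest mean in the mesenchyme too, at 8.35. Dlk1 and Meg3 had r = 0.587 across the 37 arrays.

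Among the growth regulators, Peg3 and Grb10 were highest in the mesenchyme. Peg3 was 15.34, 14.82, 15.79 and 15.11 in the bud, against 15.86 at the lowest, 16.05 at the median and 16.42 at the highest of 8 mesenchyme arrays, without overlap. The difference was -0.85 (SE 0.19, adjusted p = 0.00176), under the fold threshold, and it was -1.02 without bud replicate 3 (adjusted p = 0.000547), which passes both. Grb10 was 14.87, 15.70, 15.18, 15.21 and 15.37 in renal vesicles, against 15.67 to 16.32 in the mesenchyme, and differed by -0.75 (SE 0.15, adjusted p = 0.000735), with 1 vesicle array inside the mesenchyme range. Peg3 differed by -0.72 in the vesicle (SE 0.17, adjusted p = 0.00474). Both had their lowest mean in the proximal tubule, Peg3 at 15.03 ± 0.06 and Grb10 at 14.98 ± 0.08 (SD, n = 2 each).

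Dimmer probe sets of these genes moved further. Peg3 probe set 1417356_at averaged 7.70 ± 0.99 in the renal vesicle (SD, n = 5) and 7.25 ± 1.74 in the interstitium (SD, n = 4), against 10.56 ± 0.67 in the mesenchyme (SD, n = 8). It fell by 2.86 in the vesicle (SE 0.64, adjusted p = 0.00273; 6.41% of probe sets fell) and fell by 3.31 in the interstitium (SE 0.69, adjusted p = 0.000908; 5.98% fell). Peg3 probe set 1417355_at rose by 3.12 in the ureteric tip (SE 0.77, adjusted p = 0.00859) and by 3.68 in the medullary collecting duct (SE 0.77, adjusted p = 0.00131), relative to the ureteric bud, in which it averaged 9.21 ± 0.25 (SD, n = 4). Grb10 probe sets 1425457_a_at and 1430164_a_at both rose in the duct, the first by 1.92 (SE 0.56, adjusted p = 0.0201), the other by 1.84 (SE 0.60, adjusted p = 0.0369), while the main Grb10 probe set differed from the bud by -0.22. For these genes the main probe sets and the dimmer ones therefore do not give the same order of components.

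Plagl1 had 1 array far from the others: its pooled SD was 1.41 over all arrays and 0.61 without the 2 libraries whose markers go against their labels, while that of Meg3 was 1.26 and 1.17. Renal corpuscles were at 14.15, 14.92, 14.95 and 7.02, and the low array is the library labelled replicate 4. Renal vesicles were at 11.87, 14.18, 13.75, 13.05 and 12.02, against 14.02 at the lowest, 14.74 at the median and 15.17 at the highest of the mesenchyme arrays, and differed by -1.63 (SE 0.72, adjusted p = 0.13). The fit without the 2 libraries gave the same -1.63 with an SE of 0.32 (adjusted p = 0.000615), where 9.5% of all genes fell. In that fit Plagl1 rose by 1.86 in the renal corpuscle relative to the S-shaped body (SE 0.46, adjusted p = 0.0172), whereas with all arrays the difference had the opposite sign and was not called (-0.48, SE 0.90, adjusted p = 0.872). Its highest mean was in the ureteric bud, 15.06 ± 0.43 (SD, n = 4). The dimmer Plagl1 probe sets 1438588_at and 1450533_a_at had r = -0.059 and 0.417 with the main one, 1426208_x_at, and neither was called in a comparison of 2 components.

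Ndn, a MAGE family protein linked to growth arrest, varied little in its bright main probe set. It was highest in the medullary interstitium, at 15.83, 15.76, 16.05 and 16.12, against 14.51 at the lowest, 15.48 at the median and 15.89 at the highest of the 16 other E15.5 arrays. The difference of 0.54 (SE 0.15, adjusted p = 0.0263) passed the p but not the fold. Ndn probe set 1415923_at rose by 1.02 in the same comparison (SE 0.24, adjusted p = 0.00809; 2.74% of probe sets rose). The other Ndn probe set called in any comparison was 1438978_x_at, which rose by 1.48 in the renal vesicle relative to the mesenchyme (SE 0.39, adjusted p = 0.0106, where 4.25% of probe sets rose) and had r = -0.1 with the main one. It was dim, above the pooled median in only 3 arrays and with deposited signals of 2.4 to 277, so the size is not exact. Of the rest, 1435382_at, 1435383_x_at and 1437853_x_at followed the main one at 0.85 to 0.897, 1438939_x_at had -0.119, and 1456575_at did not pass the filter, like Peg3 probe sets 1447731_at and 1447732_x_at. Mest showed no call in any comparison. Mesenchyme arrays of Mest were at 14.73 to 14.90 in the 3 titled as laser captured and at 13.24 to 14.10 in the 4 dissected or collagenase-treated ones, without overlap, and at 15.06 in the array whose title names no way, so the way of obtaining tissue moved with its level inside 1 component.

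Other imprinted genes of the mouse were taken from a list of 42, of which 37 were measured. In the ureteric bud against the mesenchyme 1 rose and 2 fell, with a median of -0.24, where 4.09% of all genes rose and 4.07% fell. In the renal vesicle against the mesenchyme 1 rose and 4 fell (3.87% and 7.98% of all genes), and in the S-shaped body against the vesicle 1 rose and 0 fell (3.29% and 1.74%). In the proximal tubule against the S-shaped body 3 rose and 1 fell (5.64% and 4.27%). Against the bud, 4 rose and 2 fell in the ureteric tip (2.04% and 2.21%), and 4 rose and 3 fell in the medullary collecting duct (4.12% and 6.09%). In the interstitium 5 rose and 4 fell against the mesenchyme (4.67% and 6.82%), and 3 rose and 0 fell against the other E15.5 components (3.48% and 2.64%). By limma 0 of 37 were called in the renal corpuscle against the S-shaped body (5 at an unadjusted p under 0.05; 0.102% and 0.477% of all genes) and in the ureteric tip against the duct (4 at that level; 0.121% and 0.236%). In the renal corpuscle against the other E15.5 components 0 rose and 1 fell (2.01% and 3.4%). A difference between the list's shares and those of all genes was not tested. Rian, a non-coding RNA downstream of Meg3, fell by 1.65 in the bud (SE 0.48, adjusted p = 0.0209), and Usp29, the neighbour of Peg3, fell by 1.69 (SE 0.50, adjusted p = 0.0235). Calcr, the calcitonin receptor, rose by 4.32 in the bud relative to the mesenchyme (SE 0.60, adjusted p = 3.32e-06) and fell by 4.16 in the ureteric tip relative to the bud (SE 0.75, adjusted p = 0.000717). Dcn, the matrix proteoglycan decorin, rose by 5.04 in the interstitium relative to the mesenchyme (SE 0.86, adjusted p = 0.000134). Phlda2, a placental growth restraint gene near Cdkn1c, fell by 2.98 in the renal corpuscle relative to the other E15.5 components (SE 0.59, adjusted p = 0.0021), the comparison in which Cdkn1c rose.

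Igf signalling genes numbered 19, of which 18 were measured. In the medullary collecting duct relative to the ureteric bud, the comparison in which Igf2 rose, 4 rose and 3 fell, with a median of 0.57 against -0.19 over all genes, of which 4.12% rose and 6.09% fell. Igf1, the related growth factor, rose by 3.75 (SE 1.03, adjusted p = 0.0147), the binding protein genes Igfbp7 and Igfbp5 both rose, Igfbp7 by 4.63 (SE 0.40, adjusted p = 3.69e-10) and Igfbp5 by 3.22 (SE 0.63, adjusted p = 0.000706), and Igfbp1 fell by 2.98 (SE 0.91, adjusted p = 0.029). In the ureteric tip relative to the duct, where Igf2 fell, Igfbp7 fell by 1.89 (SE 0.43, adjusted p = 0.0358; 0.236% of all genes fell) and no other listed gene was called. In the interstitium relative to the mesenchyme 3 rose and 3 fell, where 4.67% of all genes rose and 6.82% fell. The largest changes there were the rises of Igfbp7 by 4.32 (SE 0.32, adjusted p = 1.06e-11) and Igf1 by 2.72 (SE 0.82, adjusted p = 0.0239). Picked for their link to Igf2, Igf2r and Igf2bp3 changed less. Igf2r, which clears Igf2 from the cell surface and is itself imprinted, rose by 1.38 (SE 0.36, adjusted p = 0.00887). Igf2bp3, which encodes an RNA-binding protein named for Igf2 transcripts, fell by 1.26 (SE 0.29, adjusted p = 0.00297).

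Cell cycle genes were set beside Cdkn1c. In the medullary collecting duct relative to the bud, where Cdkn1c rose, 0 of 17 measured genes rose and 10 fell, with a median of -1.43, where 4.12% of all genes rose and 6.09% fell. Bub1, a mitotic checkpoint kinase, fell by 2.56 (SE 0.85, adjusted p = 0.0465) and Plk1, a mitotic kinase, fell by 2.16 (SE 0.58, adjusted p = 0.0121). The kinase inhibitor gene Cdkn1a was also among the 10 and fell by 1.77 (SE 0.59, adjusted p = 0.0478). In the renal corpuscle relative to the other E15.5 components, where Cdkn1c also rose, 0 of 17 rose and 0 fell by limma, with 3 at an unadjusted p under 0.05 and a median of -0.01 (2.01% of all genes rose and 3.4% fell). In the bud relative to the mesenchyme, where Cdkn1c fell, 2 rose and 0 fell (4.09% and 4.07% of all genes); the risers were Ccnd1, a G1 cyclin (1.73, SE 0.39, adjusted p = 0.00197), and Cdkn1a, another kinase inhibitor (2.66, SE 0.47, adjusted p = 0.000128). In the vesicle relative to the mesenchyme, where it fell too, 2 rose and 0 fell (3.87% and 7.98% of all genes): Ccnd1 rose by 2.43 (SE 0.36, adjusted p = 2.24e-05) and the inhibitor gene Cdkn1b by 1.43 (SE 0.33, adjusted p = 0.00292).

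The genes whose levels ran closest to each member over the 37 arrays are given as descriptions, since the arrays share components and dates. Cdkn1c ran closest to Cnn2 (r = 0.867), Tcf21, a transcription factor of podocytes and stroma (0.851), and Pcolce, a collagen-processing protein (0.836). Meg3 ran closest to Col6a1, a collagen VI chain (0.822), Svil (0.755) and Npr2 (0.709). Grb10 ran closest to Nrep (0.897), which was also among the 3 closest to Peg3 (0.680). Igf2 ran closest to Cmtm3 (0.708), the H19/Mir675 probe set to Foxo3 (0.803), Dlk1 to Rassf4 (0.714), Mest to Ptgis (0.724), Peg3 to Slc12a2 (0.713), Plagl1 to Glce (0.820) and Ndn to Pbx3 (0.784). No member was among the 3 closest genes of another.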

How the data were processed

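The deposited values are signal intensities that the authors computed with GCOS, per the submitters' processing notes, with no version given; the deposited table was checked to have a 2% trimmed mean of 1500 in all 37 arrays. Probe sets were named from the platform annotation: 34945 have 1 gene, 932 several and 9160 none, and the H19/Mir675 probe set was kept as its own feature. An offset of 34.62 was added before log2, which understates changes of dim genes. Arrays were quantile normalized, probe sets above the pooled median of 7.89 in at least 2 arrays were kept, and the one with the highest mean stood for a gene. With limma 3.58.1 (R 4.3.3), all arrays entered a single model of the component means (moderated variances, Benjamini-Hochberg adjustment over 15710 features), after the code was tested on simulated data. The reference for 2 comparisons is the mean of the other E15.5 component means.

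The members and lists were chosen with earlier results of these data known. All 10 members are named, with every probe set for which the text gives a value or a range of values, the 3 closest genes for each by correlation (those beyond the first for some members left out), and up to 4 called genes of a list and comparison. The named genes of a list are not always those with the largest change. The probe sets other than the main ones, and 5 uncalled fold changes that were followed through the alternatives, were picked after their values were seen. Samples were grouped by their source label, and replicates are numbered in accession order. Alternatives covered the offset, normalization, filter, choice of probe set, array weights, samples in the fit, title date, title number, tissue method and single arrays left out. The number of arrays limits the precision.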

Additional observations from a re-analysis of the deposited data

Results flagged for a closer look

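Among 60 sets of 4 to 8 arrays (1 gene in 1 component), 6 held an array far from the rest by Dixon's test; chance flags about 1 in 20 groups. The library labelled renal corpuscle replicate 4 had Plagl1 at 7.02, against 14.15 to 14.95 in the other corpuscles. The library labelled S-shaped body replicate 3 had Meg3 at 14.15, with 10.67 to 10.90 in its fellow arrays. These are the 2 libraries whose podocyte and vesicle markers lay with the other component. The Plagl1 value of 7.02 lay with neither, since the S-shaped bodies were at 12.44 to 14.52. S-shaped body replicate 2 had Mest at 13.29, against 13.99 to 14.13. Ureteric bud replicate 3 had Dlk1 at 8.32, against 9.0 to 9.13. Metanephric mesenchyme replicate 8 had Ndn at 16.31, against 15.39 to 15.76, and S-shaped body replicate 1 had Ndn at 15.55, against a lowest of 15.49, a gap far smaller than the spread in other components.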

How the results depend on the processing

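Of 21 member fold changes followed through 330 alternatives other than single arrays left out, 283 kept direction and call, 23 lost the call, 22 gained it and 2 turned direction. The 2 that turned were Grb10 in the renal vesicle against the mesenchyme (0.45) and Ndn in the interstitium against the other E15.5 components (-0.21), both with the probe set of largest variance. Counts of members called moved as follows, and the cause was not tested. Calls over all genes move with the setting too and are not given for most settings. A moved count is therefore not a result about the members. With the probe set of largest variance they were 1 in bud against mesenchyme, 3 in vesicle against mesenchyme, 1 in S-shaped body against vesicle, 2 in proximal tubule against S-shaped body, 1 in tip against bud, 0 in tip against duct and 2 in interstitium against mesenchyme; with the mean of a gene's probe sets they were 2 in vesicle against mesenchyme, 1 in each of S-shaped body against vesicle, proximal tubule against S-shaped body and tip against bud, 0 in tip against duct and 3 in interstitium against mesenchyme. Without probe sets of suffix _x_at or _s_at it was 1 in bud against mesenchyme and 1 in proximal tubule against S-shaped body. With the authors' scaling alone it was 0 in vesicle against mesenchyme, 1 in proximal tubule against S-shaped body and 1 in duct against bud. An offset of 100, the stricter filter and date as a random block each gave 1 in proximal tubule against S-shaped body. Array weights gave 3 in vesicle against mesenchyme, 4 in duct against bud, 3 in tip against duct, 1 in interstitium against mesenchyme and 1 against the other E15.5 components. Only the samples compared gave 2 in vesicle against mesenchyme, 1 in interstitium against mesenchyme and 0 in corpuscle against the other components. With date as a fixed term the bud side rests on the only bud array with a date code. There Cdkn1c stood at -1.25 in bud against mesenchyme and at 0.59 in duct against bud, and these fits cannot decide the calls. In corpuscle against the others date as a fixed term gave 0, where it left 3 calls over all genes, and Cdkn1c stood at 1.33. Tissue method as a term, which only the mesenchyme arrays can estimate, gave 1 in duct against bud. Only laser-captured, or only dissected or collagenase-treated, mesenchyme gave 0 in vesicle against mesenchyme. Without the 2 libraries whose markers go against their labels the count was 2 in vesicle against mesenchyme, 2 in corpuscle against S-shaped body and 2 in proximal tubule against S-shaped body.

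With single arrays left out, the counts ran from 1 to 2 in bud against mesenchyme and in duct against bud, from 0 to 1 in the other comparisons of 2 sides except tip against bud, where they stayed at 0, and from 7 to 9 for any difference among components. Title numbers were not used to pair samples in the main fit. Between components, deviations of arrays with the same number correlated at a median of 0.007 (99 pairs, -0.229 to 0.22). The other pairs had a median of 0 (498 pairs, -0.25 to 0.474). These values cannot show whether arrays with the same number share animals. The replicate block (title number as a term) gave 1 member in bud against mesenchyme, 2 in vesicle against mesenchyme, 1 in corpuscle against S-shaped body, where Cdkn1c was 1.63 (adjusted p = 0.042), 1 in proximal tubule against S-shaped body and 1 in interstitium against mesenchyme. Calls over all genes are not given for these fits either, so the counts only describe how the member calls moved.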
